A study of Homo sapiens with 8 samples.

Results

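Deubiquitinase transcripts of the USP and OTU families were examined for peaks of the methylated adenosine m6A in U2OS cells, a human osteosarcoma line. Members were the genes in the m6A peak lists named USP followed by digits, with or without a letter, or named OTUD or OTUB; names that end as pseudogenes were left out. There were 43 such genes, 36 USP and 7 OTU, among 10577 genes with a peak, and they held 123 of 28949 peaks. One of them, OTUD6B-AS1, is an antisense RNA taken in by its name, and the other 42 code for proteins. The study compared cytoplasmic RNA of cells given siRNA against DF2 (YTHDF2) with that of control cells, in 8 libraries: 2 m6A immunoprecipitates and 2 inputs for DF2 siRNA, and the same for control. For DF2 siRNA the labels carry the numbers 1 and 2, which may or may not stand for 2 siRNA sequences, and nothing says whether libraries came from separate cultures or what the control cells received. RNA was broken to about 100 nt and precipitated with an antibody against m6A. The deposited values are 1 peak list per condition, each tied by the labels to both immunoprecipitates, so no difference between conditions has a replicate check and none is given a p-value. The level of YTHDF2 itself was not analysed here.

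Ubiquitin is a small protein attached to other proteins, often as chains that send the target to the proteasome or change what it binds. Deubiquitinases cut it off again: USP enzymes are the largest family of these cysteine proteases, and OTU enzymes are known for preferring particular chain types. In mRNA, m6A is placed by a nuclear methyltransferase and is known to be dense around stop codons, in 3′ UTRs and in long exons. YTHDF2 binds m6A in the cytoplasm and brings the bound mRNA to deadenylation and decay.

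Most members carried m6A peaks in both conditions. DF2 siRNA cells had 59 member peaks in 39 genes and control cells had 64 in 40 genes. A peak in both lists was found for 36 of the 43 members, 83.7% (95% exact binomial, Clopper-Pearson, interval 69.3 to 93.2%), against 75.2% of all genes with a peak. DF2 siRNA only held 3 members (USP5, USP19, USP21), 6.98% (1.46 to 19.1%), against 5.73% of all genes, and control only held 4 (USP8, USP11, USP13, USP39), 9.3% (2.59 to 22.1%), against 19.1%. All 3 intervals include the share over all genes. Intervals here and below cover counting error only.

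Fold enrichment is the authors' ratio for each peak. Its denominator is not stated, so it describes and ranks peaks within a list. The median over member peaks was 19.7 in DF2 siRNA (binomial interval of the median 13.8 to 28.3) and 30 in control (20.3 to 37.2). All peaks had medians of 17.7 in DF2 siRNA and 20.8 in control. Of the member peaks, 30 of 59 in DF2 siRNA and 38 of 64 in control lay above the median of their own list, where 50% of all peaks lie. The highest 10% of each list held 7 member peaks in DF2 siRNA and 8 in control, 11.9% (4.91 to 22.9%) and 12.5% (5.55 to 23.2%), against 10% of all peaks. Both intervals of the member medians include the median over all peaks. Members ranged from 4.63 (USP7) to 149 (USP10) in DF2 siRNA and from 5.10 (USP47) to 166 (USP10) in control.

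**Figure D1:**
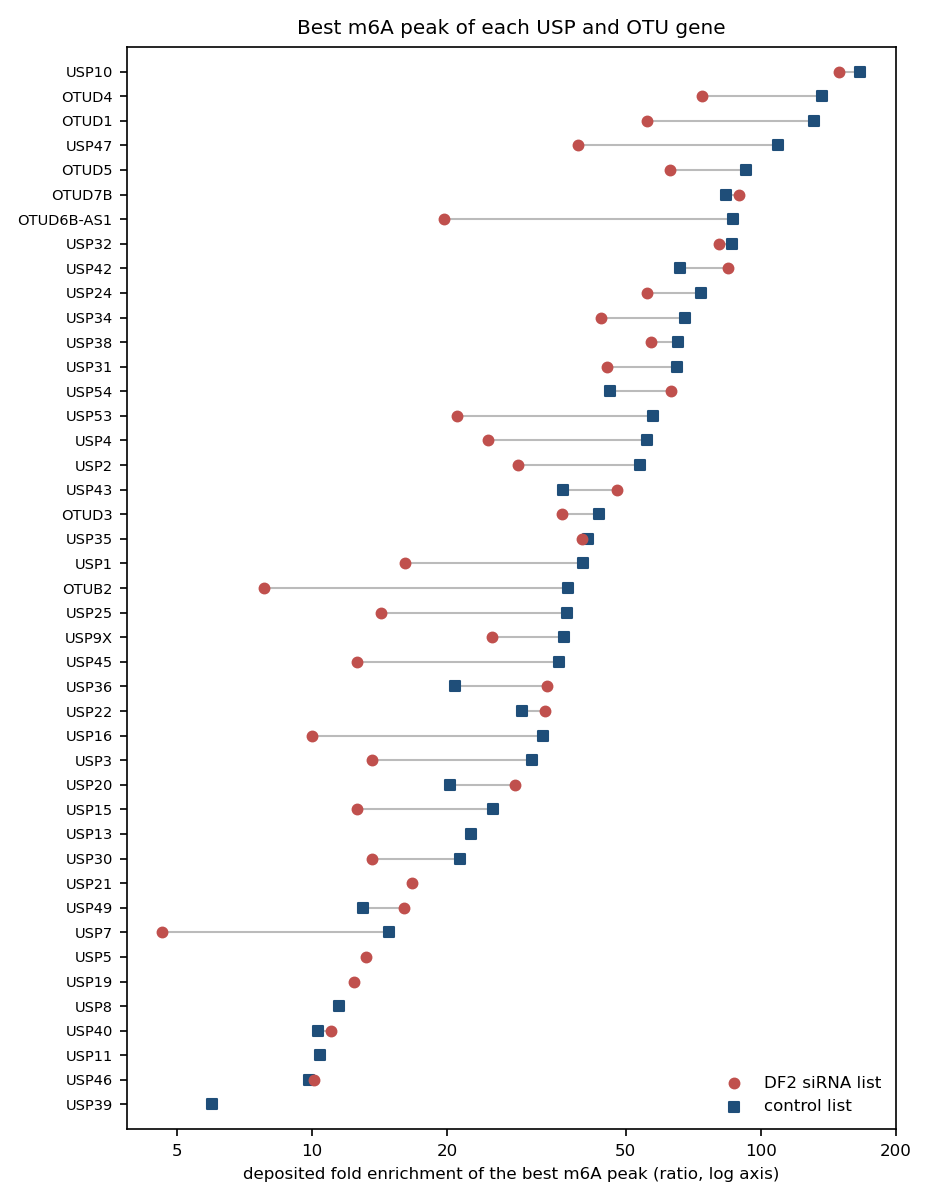
Deposited fold enrichment (log axis) of the best m6A peak of each of the 43 USP and OTU genes in the DF2 siRNA list (circles) and the control list (squares), joined where a gene is in both lists. USP10 leads the 43 genes in both lists at 149 and 166, and the 7 genes with a single symbol all lie at 22.6 or below.

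Genome sequence was at hand only around RefSeq transcription starts (GRCh38.p14, the assembly that UCSC calls hg38), so the stretches below are those where a member peak covers the first transcribed bases. Of 37 members with such a start window, 8 had a peak on the first 50 transcribed bases of 1 window or more; 9 of 52 windows were covered. Each line gives 30 bases within the peak, with the letters GGAC, the core of the usual m6A context, in capitals where they occur. OTUD5, USP1, USP38 and USP54 were covered in both lists, USP32 in DF2 siRNA only, and USP11, USP2 and USP39 in control only. One window of each is shown, except for USP54.
OTUD5 (chrX:48958352-48958381, minus strand): gctacaggggccagctatgctcccgggagt
USP1 (chr1:62437049-62437078, plus strand): gaaaacgcgccaagttcccctcggtggcgg
USP38 (chr4:143184917-143184946, plus strand): acttcaaaatccgggtcaaagggtgtcgct
USP32 (chr17:60392104-60392133, minus strand): cgtgatccggcatggaggcggtggcggcga
USP11 (chrX:47233023-47233052, plus strand): tgtagaagagaacGGACggcgatggcgacg
USP2 (chr11:119364169-119364198, minus strand): agcgcgagagccgGGACccgggctgttggc
USP39 (chr2:85602861-85602890, plus strand): aacttcggaGGACctgggcgcggagggctg
GGAC stood in the first 50 transcribed bases of 3 of the 9 covered windows, those of USP11, USP2 and USP39, and in 18.9% of all 35116 start windows. Its reverse complement GTCC stood in 0 of the 9 and in 17.6% of all. The first 50 bases are a small part of these peaks, and the bases that carry m6A were not located.

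Of 9 genes listed for the turnover of MYC, MDM2 and their partners, 7 were in both lists and 2 (USP28, USP37) in neither; they included the highest peak of the family. USP10, which is known to bind the stress granule protein G3BP1, had 1 peak over the same interval in both lists (chromosome 16, 84740338 to 84759312, hg38). It comprised 1200 nt in 4 exon segments, labelled coding, stop codon and 3′ UTR. The fold enrichment of USP10 was 149 in DF2 siRNA, rank 79 of 13219 peaks, and 166 in control, rank 76 of 15730. USP7, the main deubiquitinase of MDM2, was the only member in both lists whose peaks did not overlap. Its DF2 siRNA peak covered 200 nt of the 5′ UTR (chromosome 16, 8963406 to 8964514) at a fold enrichment of 4.63 and scored 4, within the RefSeq span of USP7-AS1. Its control peak covered 1000 nt around the stop codon (8893063 to 8894062), listed at 14.8 and scored 302. The score is a whole number per peak whose meaning is not stated. USP7 therefore counts as present in both lists without a shared site.

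OTUD1, reported to act on innate immune signalling, had 1 peak of 1600 nt in DF2 siRNA and 1400 nt in control, of which 1200 nt were shared (chromosome 10, from 23439458 to 23441057 and from 23439858 to 23441257). Its fold enrichment was 55.7 in DF2 siRNA and 131 in control. USP42 was listed at 84.5 over 2000 nt in DF2 siRNA and at 66.1 over 2400 nt in control. The nucleolar enzyme USP36, which stabilises MYC, had 3 peaks in each list, in the 3′ UTR, in coding sequence and at a stop codon label. They were listed at 23.4, 33.3 and 13.2 in DF2 siRNA and at 15.9, 20.8 and 10.9 in control. USP2, an enzyme acting on MDM2 and cyclin D1, had a 3′ UTR peak at 23.9 in DF2 siRNA and 19 in control. Its other peak, upstream, was listed at 28.8 and 53.7; the 2 intervals shared 600 of their 800 nt.

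Of 11 genes tied to DNA repair and replication, 7 were in both lists, USP11 was in control only and 3 (OTUB1, USP28, USP48) were in neither. USP47, known for acting on the repair polymerase POLB, had a peak of 1000 nt labelled coding and stop codon over the same interval in both lists (chromosome 11, 11940462 to 11943524). That peak was listed at 39.1 in DF2 siRNA and 109 in control, and a second one at the 3′ end at 30.4 and 74.2. Another USP47 peak, 200 nt of 5′ UTR at 5.10, was in control only. USP1, which removes ubiquitin from PCNA and FANCD2, had 3 peaks of 400, 600 and 400 nt in DF2 siRNA, at 11.8, 16.1 and 11.2. In control it had 2 wider peaks of 1000 and 1800 nt, at 12.2 and 40.1, and the wider control peak contained 2 of the DF2 siRNA peaks. USP1 thus had more peaks in DF2 siRNA, each of them narrower than the control peak it lay in.

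USP45, which acts on the nuclease subunit ERCC1, was listed at 12.6 in DF2 siRNA and 35.4 in control, and USP43 at 47.8 and 36.2 for its 3′ peak. USP43 also had a DF2 siRNA peak at its start, at 5.21 with a score of 6, where the RefSeq span of CFAP52 overlaps. USP11, tied to BRCA2 and homologous recombination, had 1 peak of 200 nt at its start in control only (10.4, −log10 of the p-value 1.73).

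Of 8 enzymes of histone ubiquitin, 4 were in both lists, USP21 was in DF2 siRNA only and 3 (USP27X, USP44, USP51) were in neither. USP22, the deubiquitinase of the SAGA complex, had a 3′ UTR peak in both lists (chromosome 17, from 21002401 in DF2 siRNA and 21002201 in control, both to 21003000). Its fold enrichment was 33.0 in DF2 siRNA, where it scored 947, and 29.4 in control, where it scored 1700. USP16, which acts on histone H2A, had a coding peak of 400 nt at 10 in DF2 siRNA, lying within a control peak of 800 nt at 32.7. USP3, another H2A enzyme, was listed at 13.6 in DF2 siRNA, labelled 3′ UTR only, and at 30.9 in control, where the wider peak also took in the stop codon. USP3-AS1 lies across the same stretch in RefSeq. USP49, which acts on histone H2B, had 1 peak of 1400 nt at 16.0 in DF2 siRNA and 3 peaks of 600 nt each at 6.75, 11.3 and 13 in control. The DF2 siRNA peak of USP49 spanned 2 of these 3. USP21, also an H2A enzyme, was found in DF2 siRNA only, with 400 nt at 16.7.

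Of 9 genes listed for TGF-beta and Wnt signalling, 6 were in both lists, USP11 was in control only and 2 (USP9Y, USP33) were in neither. USP34, which acts on the Wnt scaffold axin, had its strongest peak at the end of the gene (chromosome 2, 61187988 to 61188955), the same interval in both lists, at 44.0 in DF2 siRNA and 67.9 in control. A peak of AHSA2 was listed on the other strand there. A coding peak far upstream in USP34 was listed at 17.3 and 34.0, and one more, at 19.1, in control only. USP9X, known for stabilising MCL1 and for acting on SMAD4, had only peaks without a stop codon or 3′ UTR label. Its coding peak at chromosome X, 41215913 to 41217279, was listed at 25.1 in DF2 siRNA and 36.4 in control, and another at 13.8 and 11.7. The remaining USP9X peak, at the 5′ UTR and coding start (11.8), was in control only.

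USP15, a regulator of TGF-beta receptors, was listed at 12.6 in DF2 siRNA and 25.3 in control, and USP25 at 14.2 and 37.0. USP4, which acts on the type I TGF-beta receptor, had 2 peaks in each list, and the better one differed. The peak at the 3′ end was listed at 24.6 in DF2 siRNA and 30.7 in control, and the one within the gene at 21.1 and 55.6. A peak of C3orf62 on the same strand overlaps the first of these, so reads there cannot be assigned to USP4 alone. USP20, which binds the tumour suppressor VHL, had a 3′ UTR peak of 1000 nt at 28.3 in DF2 siRNA and 20.3 in control, plus a coding peak in DF2 siRNA only at 8.61.

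Of 13 genes of interferon and NF-kB signalling, 9 were in both lists and 4 (OTUB1, OTUD7A, USP18, USP41) in neither. RefSeq names USP41 as a pseudogene, so it is not among the symbols of the name rule. All 7 OTU members had 1 peak in each list. OTUD4 was listed at 73.9 over 1600 nt in DF2 siRNA and at 137 over 1800 nt in control, rank 194 of that list (chromosome 4, to 145139963 in both). OTUD7B, also called Cezanne and selective for K11-linked chains, had the same interval of 1800 nt in both lists (chromosome 1, 149943389 to 149949006). It was listed at 89.5 in DF2 siRNA and 83.5 in control. OTUD5, also called DUBA and acting on TRAF3, had an identical peak of 600 nt over its start (chromosome X, 48957450 to 48958386), at 62.7 in DF2 siRNA and 92.6 in control. OTUD3 had an identical peak of 800 nt at 36.1 and 43.5. OTUB2 differed most in width among the OTU members: its DF2 siRNA peak of 600 nt in the 3′ UTR (7.82) lay inside a control peak of 2000 nt (37.2). The antisense RNA OTUD6B-AS1 was listed at 19.7 over 1000 nt in DF2 siRNA and 86.7 over 1400 nt in control.

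Several USPs carried 3 or more peaks. USP38, a regulator of interferon signalling, had 3 peaks in DF2 siRNA and 4 in control. At its start, 1 DF2 siRNA peak of 1000 nt at 56.8 overlapped control peaks of 200 nt at 8.51 and 800 nt at 46.4, sharing 600 nt with the wider one. At its stop codon it was listed at 19.7 in DF2 siRNA and 65.2 in control. The best USP38 peak therefore lay at the start in DF2 siRNA and at the stop codon in control. USP31 had 3 peaks in each list, the widest with 2200 nt at 45.3 in DF2 siRNA and 2000 nt at 65.1 in control. USP54, long classed as lacking catalytic activity, also had 3 in each, with its best at 62.9 in DF2 siRNA and 46.0 in control. PPP3CB-AS1 lies across 2 of the USP54 peaks, and in 1 of these places it has a peak of its own on the other strand. USP53, classed in the same way, was listed at 21.0 in DF2 siRNA and 57.4 in control.

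Of 7 genes of the endosome, endoplasmic reticulum and proteasome, USP32 was in both lists, 2 (USP5, USP19) were in DF2 siRNA only, 2 (USP8, USP13) in control only and 2 (USP6, USP14) in neither. USP32, found on Golgi and endosome membranes, had an identical peak of 1155 nt in 5 exon segments (chromosome 17, 60179094 to 60185472) at 80.7 in DF2 siRNA and 86.1 in control. Its second peak, across the 5′ UTR and coding start at 8.59, was in DF2 siRNA only. USP30, which opposes Parkin on mitochondria, had 2 peaks in each list, at 13.6 and 12.0 in DF2 siRNA and at 20.3 and 21.4 in control. USP35, also found at mitochondria, had an identical peak of 1800 nt at 40.0 and 41.2. USP24 was listed at 55.6 in DF2 siRNA and 73.5 in control at the stop codon, USP40 at 11.0 and 10.3, and USP46, a partner of WDR48, at 10.1 and 9.84 for its best peak.

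The peaks of members lay mainly at stop codons and in 3′ UTRs. With 1 label per peak, the stop codon taken first, 30 of 59 DF2 siRNA peaks (50.8%, 37.5 to 64.1%) and 36 of 64 control peaks (56.2%, 43.3 to 68.6%) touched a stop codon. Over all peaks the shares were 43.7% in DF2 siRNA and 42.7% in control. In DF2 siRNA the member interval includes the share over all peaks, and in control it lies just above it, from 43.3%. All peaks include those of non-coding RNA, which the name rule nearly leaves out, and this lowers their stop codon share. Whether the control difference holds among peaks of protein-coding genes was not tested. Among member peaks no wider than 400 nt, the stop codon share was 40.9% of 22 peaks in DF2 siRNA and 36.4% of 11 in control. Both are below the member shares over all widths. The share among all peaks of that width was not computed, so the drop cannot be called particular to members. The 3′ UTR, taken next, was the single label of 25.4% of DF2 siRNA and 20.3% of control member peaks. Over all peaks its shares were 18% in DF2 siRNA and 18.5% in control. In both lists some member peaks with this label, such as those of USP34 and USP45, were also labelled coding. Coding sequence, taken after the 3′ UTR, held 16.9% of DF2 siRNA and 17.2% of control member peaks, against 19% and 15.5% of all peaks. The 5′ UTR held 5.08% and 3.12% of member peaks, against 7.53% and 7.43% of all peaks. For the 3′ UTR, coding sequence and the 5′ UTR, the member intervals include the share over all peaks in both lists. Non-coding RNA held 1 peak in each list, that of OTUD6B-AS1, which is 1.69% of DF2 siRNA (0.0429 to 9.09%) and 1.56% of control member peaks (0.0396 to 8.4%), against 10% and 13.5% of all peaks. Since the name rule takes 42 protein-coding genes and 1 antisense RNA, this last share follows from the rule. A stop codon peak was found in both lists for 24 members, among them USP10, USP32, OTUD4 and OTUD7B.

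**Figure D2:**
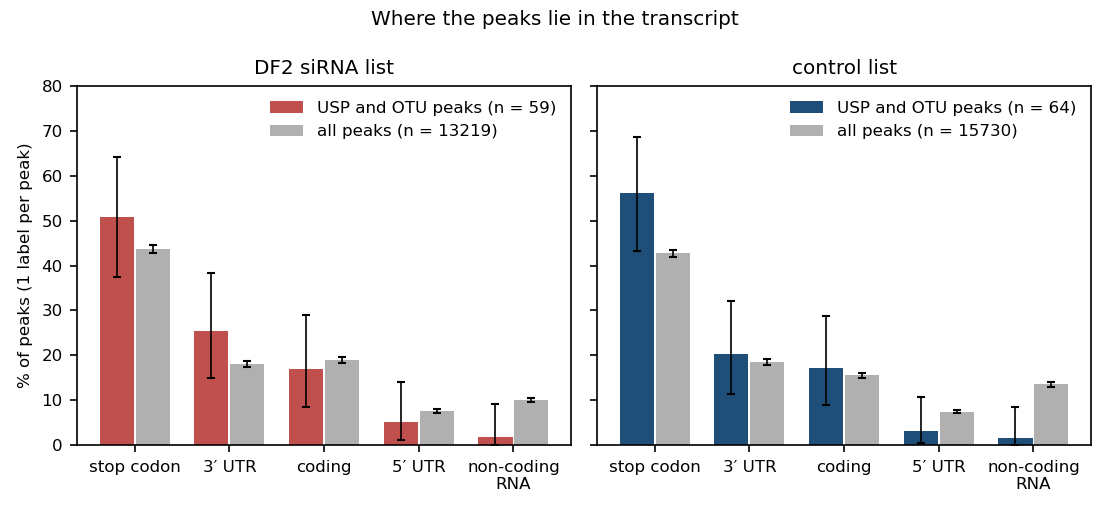
Share of peaks (%) with each of the authors' feature labels, 1 label per peak in the order shown, for USP and OTU peaks (coloured, n = 59 and 64) and all peaks (grey, n = 13219 and 15730), in the DF2 siRNA list and the control list. Bars start at 0 and error bars are 95% exact binomial intervals; stop codon peaks make up 50.8% and 56.2% of member peaks.

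Along the genes, members' peaks were crowded towards the 3′ end. Positions were computed for member peaks only, so the position shares have no share over all peaks beside them. By the midpoint of the peak on the RefSeq span of the gene, introns included, 35 of 59 DF2 siRNA peaks (59.3%) and 37 of 64 control peaks (57.8%) lay in the last 20% of the span. The feature labels are the authors' own and do not always follow the ends of the RefSeq gene. Of the peaks labelled stop codon, 12 of 30 in DF2 siRNA and 13 of 36 in control lay before the last 20%. OTUD5 is such a case: its peak was labelled coding, 5′ UTR and stop codon, and sat at 1.27% of the span. Member peaks ran across several exon segments in 33 of 59 cases in DF2 siRNA (55.9%, 42.4 to 68.8%) and in 39 of 64 in control (60.9%, 47.9 to 72.9%). The shares over all peaks, 42.0% in DF2 siRNA and 46.4% in control, lie below the members' intervals. All peaks include those of non-coding RNA, 10% in DF2 siRNA and 13.5% in control. The median width in control was 800 nt for member peaks and 600 nt for all peaks, and in DF2 siRNA it was 600 nt for both. Whether the difference holds at equal width or among protein-coding genes was not tested.

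**Figure D3:**
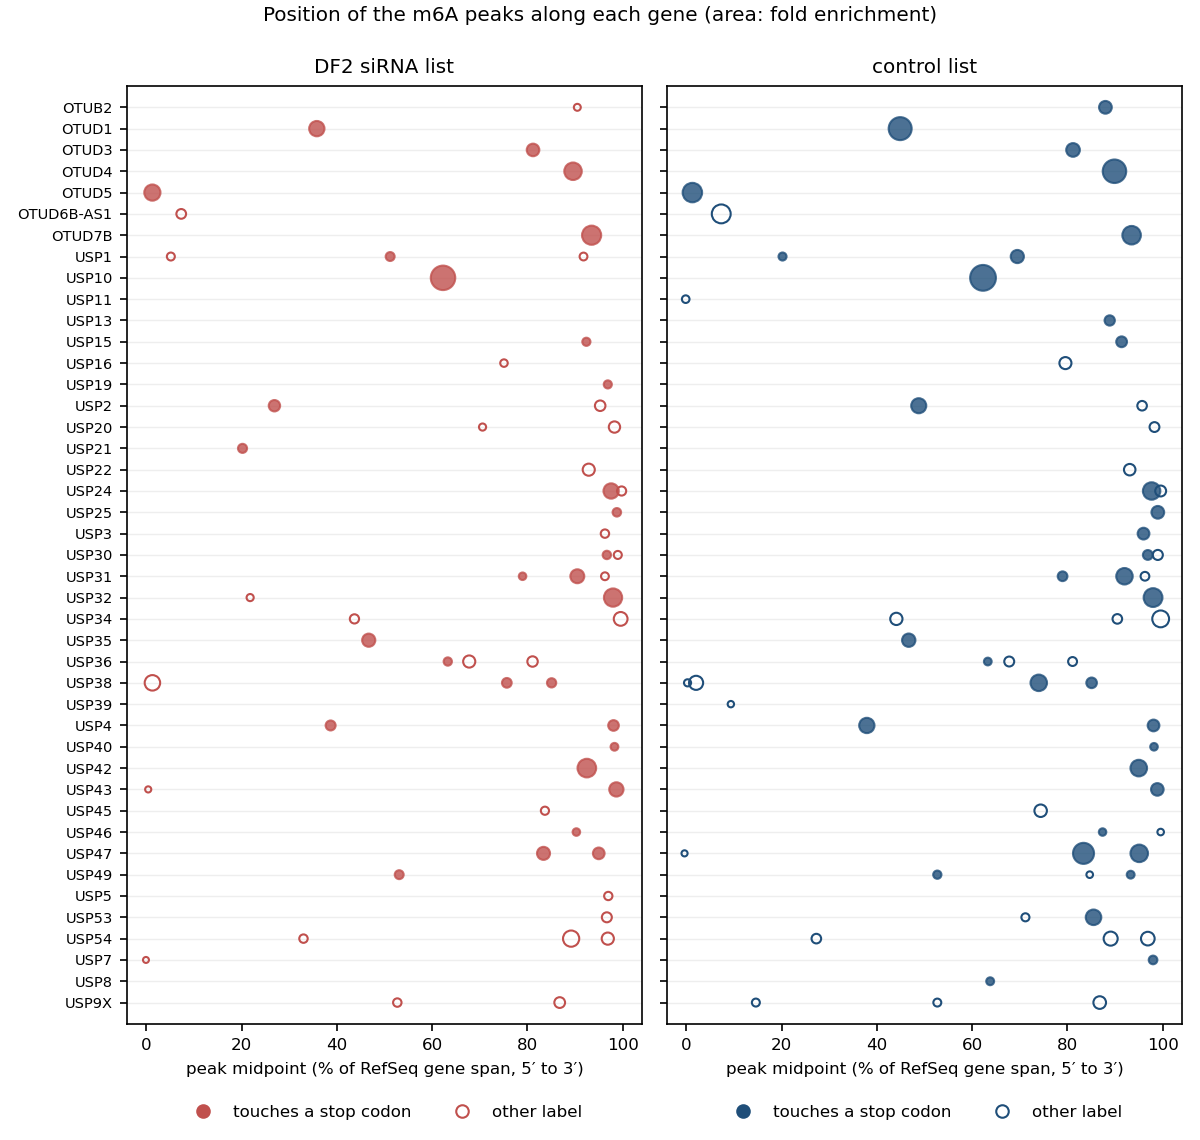
Midpoint of every m6A peak as % of the RefSeq gene span from 5′ to 3′, 1 row per gene, in the DF2 siRNA list (59 peaks) and the control list (64 peaks). Symbol area grows with fold enrichment and filled symbols touch a stop codon. Most peaks sit at the right, while OTUD5 and USP38 in both lists, and OTUD6B-AS1 in control, have strong peaks at the left.

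Most member peaks overlapped between the conditions. Of the DF2 siRNA peaks, 52 of 59 (88.1%, 77.1 to 95.1%) shared 1 exonic base or more with the control list, strand for strand, against 87.5% of all DF2 siRNA peaks. Of the control peaks, 53 of 64 (82.8%, 71.3 to 91.1%) had a DF2 siRNA counterpart, against 71.9% of all control peaks. The member share of DF2 siRNA peaks was near that of all peaks, and the interval for control peaks begins at 71.3%, so it includes the share over all peaks. Of all DF2 siRNA peaks 12.5%, and of all control peaks 28.1%, had no counterpart. Member peaks without a counterpart had lower median fold enrichments than those with one. The 7 in DF2 siRNA had fold enrichments from 4.63 to 16.7, with a median of 8.61, against 22.2 for the 52 overlapped. The 11 in control ranged from 5.10 to 22.6, with a median of 11.5, against 36.2 for the 53 overlapped. Over all peaks the same medians were 9.96 and 20.3 in DF2 siRNA, and 10 and 30.5 in control.

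Where peaks of a gene overlapped, the control peak was more often the wider one. Among 54 overlapping pairs, the DF2 siRNA peak was the wider in 9, the control peak in 27, and 18 were of equal width. The control peak was the wider in 50% of member pairs (36.1 to 63.9%) and in 42.1% of all 12632 pairs. Intervals were identical for 17 pairs in 15 genes, which is 28.8% of the DF2 siRNA member peaks and 26.6% of the control ones, against 35.1% and 29.5% of all peaks. The number of peaks was equal in both lists for 25 of the 36 shared members, higher in DF2 siRNA for 4 and higher in control for 7. The same split over all shared genes was not computed, and the control list was the longer one, with 15730 peaks against 13219. Genes with 2 peaks or more made up 38.5% of members in DF2 siRNA (23.4 to 55.4%) and 37.5% in control (22.7 to 54.2%), against 37.4% and 38.9% of all genes with a peak. Library depths are unknown, and both the number and the width of peaks depend on depth, so depth and condition cannot be told apart here.

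**Figure D4:**
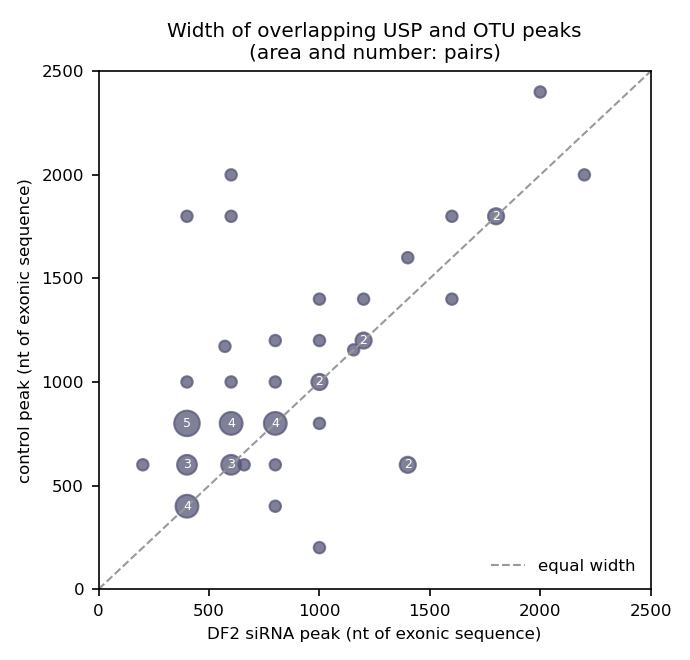
Exonic width (nt) of the 54 overlapping peak pairs of USP and OTU genes, DF2 siRNA on the horizontal axis and control on the vertical axis, with the number of pairs printed where it exceeds 1. More pairs lie above the dashed line of equal width (27, control wider) than below it (9, DF2 siRNA wider).

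Each of the 7 members found in 1 list had 1 peak there, and 6 of these peaks, all but that of USP13, lay below the median fold enrichment of their list. The −log10 value is headed FDR in the DF2 siRNA file and p-value in the control file, so the values of the 2 lists are not set against each other. In DF2 siRNA only were USP19, an enzyme anchored in the endoplasmic reticulum, with 400 nt at the stop codon (12.4, −log10 of the FDR 1.96), USP21 (16.7, with 3.31 for the FDR) and USP5. USP5, which takes apart free ubiquitin chains, had 200 nt in the 3′ UTR at 13.2 with a score of 253 (−log10 of the FDR 1.83). In control only, USP13, the relative of USP5, had 600 nt at 22.6 (−log10 of the p-value 5.05), the strongest peak among these 7. USP8, which acts on receptors at the endosome, was listed at 11.5 (1.79), USP11 at 10.4 (1.73) and USP39 at 5.98 (1.62). USP39, a splicing factor without protease activity, had no feature label, and a peak of C2orf68 was listed on the other strand at that place. The lowest −log10 value in each list is 1.3.

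The name rule takes 62 symbols in RefSeq, of which 19 had no peak in the lists used here. They were OTUB1, OTUD6A, OTUD6B, OTUD7A, USP6, USP9Y, USP12, USP14, USP18, USP26, USP27X, USP28, USP29, USP33, USP37, USP44, USP48, USP50 and USP51. They include USP14, which works on the proteasome, USP18, which removes ISG15, and USP12, the relative of USP46. Input levels were not analysed here, so for these genes a lack of methylation and a lack of RNA cannot be told apart.

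Other genes of ubiquitin conjugation and removal were taken from 6 lists with 102 genes, of which 75 had a peak: 60 in both lists (80% of the 75), 4 in DF2 siRNA only and 11 in control only. Over all genes with a peak, 75.2% were in both lists, 5.73% in DF2 siRNA only and 19.1% in control only. All 9 genes listed for a USP or OTU fold outside the name rule, not all of them active proteases, were in both lists. Among them were YOD1 (best fold enrichment 84.7 in DF2 siRNA and 134 in control), ZRANB1 (71.4 and 130) and VCPIP1 (72.5 and 120). Of 25 genes listed for the remaining deubiquitinase families, not all of them active deubiquitinases, 10 were in both and 11 in neither. By control fold enrichment BRCC3 (23.8 in DF2 siRNA and 73.2 in control), ZUP1 (9.99 and 49.9) and MYSM1 (15.0 and 43.2) came first, whereas MINDY1 was the highest in DF2 siRNA (30.4, and 23.3 in control). MPND was in DF2 siRNA only (7.11), and ATXN3 (9.59), PSMD7 (10.5) and PSMD14 (8.74) were in control only. Of 11 genes listed as USP cofactors, 10 were in both. The highest by control fold enrichment were ATXN7L3, the SAGA partner of USP22 (158 in DF2 siRNA and 171 in control), WDR20 (60.7 and 94.2) and GMPS (18.6 and 67.1). In DF2 siRNA GMPS stood lower, and ATXN7 (54.4, and 54.1 in control) and WDR48 (29.1 and 33.9) were among the cofactors above it. G3BP1, the partner of USP10, was in control only (24.8).

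Among 33 ubiquitin E1 and E2 enzymes, 16 were in both lists. The highest by control fold enrichment were UBE2Q1 (46.3 in DF2 siRNA and 119 in control), UBA6 (16.7 and 104) and UBE2O (112 and 102), of which UBE2O was the highest in DF2 siRNA. UBA1, the main E1, was in DF2 siRNA only (11.3), UBE2D1 (16.5), UBE2D2 (13.9), UBE2N (11.0) and UBE2W (9.30) were in control only, and 12 were in neither. The ubiquitin gene UBB was in both (15.8 in DF2 siRNA and 14.6 in control), and RPS27A in neither. Of 20 known substrates of the members, 13 were in both, with MDM2 (46.5 and 158), MDM4 (40.2 and 136) and MYC (58.5 and 132) the strongest in control. In DF2 siRNA, EGFR (88.0, and 106 in control), TRAF3 (85.3 and 81.4) and AXIN1 (70.0 and 69.0) stood above MDM2, MDM4 and MYC. CCND1 (15.0) and PCNA (13.9) were in DF2 siRNA only, AXIN2 (14.6), SMAD4 (13.4) and TFRC (16.7) in control only, and FANCD2 in neither.

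The lists give only a partial check of the cell line, since a peak is not a level of expression. Of 10 mesenchymal and osteoblast genes, TNC, COL5A1, RUNX2 and COL1A1 had a peak in both lists and SPARC, VIM, FN1, COL1A2, CDH2 and ALPL in neither. Of 5 epithelial genes KRT8 had one in both. Of 5 neural genes, SYP had 1 peak in control only, at 5.10.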

How the data were processed

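m6A peaks were measured in cytoplasmic RNA of U2OS cells. The submitters' processing notes name HISAT2 as a tool and hg38 as the build. The peak caller, its settings, the annotation, strand use and all versions are not stated. The authors deposited 1 peak list per condition. Per the file headers, each peak has a score (whole numbers), a fold enrichment (a ratio) and a −log10 value, of an FDR for DF2 siRNA and of a p-value for control. No read counts were used, so depth is unknown.

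From these files, block sizes on the minus strand were read in reversed order, after which 0 peaks had blocks that missed the peak's end. Peaks overlapped if they shared at least 1 exonic base on the same strand. Each peak got 1 label: stop codon was taken first, then 3′ UTR, then coding sequence, then 5′ UTR, then non-coding RNA. Shares have 95% exact binomial (Clopper-Pearson) intervals, which cover counting error only. The overlap code was tested on simulated data. Positions and start sequences came from RefSeq (GRCh38.p14). Python 3.11.15, pandas 2.3.3, numpy 2.4.6, scipy 1.17.1 and matplotlib 3.10.9 were used.

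The members and gene lists were chosen with earlier results of these data known. Every member is accounted for. The naming rule asked for values for members in 1 list only, the 6 highest and the 5 with most peaks, those whose best peaks do not overlap and up to 3 per role. Values of the remaining members, and genes singled out beyond the rule, were added after they were seen. Of the pathway lists, up to 4 genes in 1 list only and the 3 highest in both were named. For 5 list genes, older names in the files were matched through RefSeq synonyms. USP6NL falls outside the name rule but was counted among the pathway genes. A few genes of the pathway and marker lists are not reported here. Alternatives changed the thresholds, the definition of overlap, the peak width, the joining of peaks, the peaks needed per gene, the list lengths and the members.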

Additional observations from a re-analysis of the deposited data

How the results depend on the processing

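Of 58 summary values recomputed under alternatives, 40 stayed within their limits and 18 moved. For shares and medians the limits were the intervals of the main member values. Counts have no such interval here and were judged by the size of the change. Whether any result reversed was not assessed. With only the upper 50% of each list by fold enrichment, members in both lists numbered 22, those in DF2 siRNA only 2 and those in control only 9, where 68.8%, 8.34% and 22.8% of all genes fell. Members with 2 peaks or more numbered 6 in DF2 siRNA and 6 in control. Median fold enrichment was then 37.6 in DF2 siRNA and 44.8 in control, 68.4% of control member peaks were overlapped, and 2 pathway genes were in DF2 siRNA only; fewer peaks are kept by construction. With the p-value or FDR 100 times smaller, 27 members were in both lists, 1 in DF2 siRNA only and 8 in control only, where 69.5%, 5.89% and 24.6% of all genes fell. In that setting 9 members had 2 peaks or more in DF2 siRNA and 9 in control, the DF2 siRNA median was 30.4, and 0 pathway genes were in DF2 siRNA only. Needing 2 peaks per gene left 12 members in both lists. A reciprocal overlap of 50% gave 76.3% of DF2 siRNA and 70.3% of control member peaks overlapped. In control member peaks of at most 400 nt, 36.4% of 11 touched a stop codon. Apart from the shares of all genes given above, these alternatives were not computed over all peaks or genes. The other changes therefore cannot be called particular to members. No paired analysis was possible because each condition has 1 peak list, which carries no replicate number; leaving out a library was not possible for the same reason. Depth is unknown, so how far it limits the lists cannot be given.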
